A study of Mus musculus with 19 samples.

Results

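The 7 genes described here encode the enzymes and the main cofactor that write, copy and remove DNA methylation: Dnmt1, Uhrf1, Dnmt3a, Dnmt3b, Tet1, Tet2 and Tet3. They were taken by gene symbol and not by a cut on any measured value, but with earlier results of these data known. All 7 are among the 14246 symbols that the count tables list in each of 3 cell sets (16842 symbols are listed in at least 1 set). The counts came from 19 RNA-seq libraries of mouse bone marrow, in a series on mutant ASXL1 protein in clonal expansion of blood cells and in a chronic leukemia of the monocyte lineage. Myeloid cells carrying CD11b came from animals of 4 months (young, 3 mutant and 4 wild-type libraries) and of 18 months (old, 3 and 3). LK cells, a fraction rich in progenitors that lacks lineage markers and carries c-Kit, came from animals of 18 months (3 and 3). The mutant groups are labelled MT and the controls WT. The sources used here do not give the Asxl1 allele, whether it is germline or driven in chosen cells, the strain, the sex, or whether the replicates of a group are separate animals, so p-values measure only the spread between these libraries.

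Methyl groups on cytosine, mostly at CpG sites, are laid down by DNMT3A and DNMT3B on unmarked DNA and are copied to the new strand after replication by DNMT1, which UHRF1 brings to half-marked sites. The TET proteins oxidise the methyl group, which leads to its removal by dilution or by base excision. DNMT3A and TET2, together with ASXL1, are among the genes most often mutated in clonal hematopoiesis, and both shape the output of blood stem cells.

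In the libraries, gene counts summed to 26251822 to 38347903 in the young set, 41909460 to 68260809 in the old set and 31853263 to 59882448 in the LK set. Itgam, which encodes CD11b, was at 1480 to 3462 CPM (counts per 1000000 gene counts, scaled) in the CD11b libraries and at 45.2 to 85.4 CPM in the LK libraries, and Kit was at 62.1 to 115.1 and at 169.7 to 219.6 CPM, so both sort markers followed the labels. Asxl1 itself was detected in every library, at means between 94.9 CPM in LK MT and 291 CPM in old WT, and counts per gene cannot separate mutant from normal transcripts. In LK cells, MT libraries lay below WT libraries for Kit (169.7 to 195.3 and 197.2 to 219.6 CPM). The same held for Asxl1 (92.2 to 97.2 and 106 to 116.9 CPM), beside 21.1% of all genes. Itgam overlapped, at 45.9 to 85.4 CPM in LK MT and 45.2 to 56.5 CPM in LK WT. In each 18-month group, replicates 2 and 3 were more alike than either was to replicate 1 (chi-square per degree of freedom of 2.92 to 6.39 against 13.7 to 44.5), and the results below were also computed with these replicates summed to 1 library. Of the 7 young libraries, 5 (MT replicates 1 and 2, WT replicates 1 to 3) held 48221 to 65185 counts of Xist and at most 1 count of the Y-linked gene Ddx3y, and the other 2 young libraries and all 12 libraries of 18 months held 2581 to 4388 counts of Ddx3y.

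By the GENCODE annotation of GRCm38 (mm10), the 7 genes lie on 7 chromosomes and are all protein coding. Dnmt1 spans chr9:20907209-20959888 (minus strand), Uhrf1 chr17:56303321-56323486 (plus), Dnmt3a chr12:3806007-3914443 (plus) and Dnmt3b chr2:153649450-153687730 (plus). Tet1 spans chr10:62804570-62908996, Tet2 chr3:133463679-133545139 and Tet3 chr6:83362373-83459084, all on the minus strand. Dnmt3b lies 245443 bp from the end of Asxl1, on the same chromosome and strand, with 3 protein-coding genes between them. Merged exons add up to 4.26 kb in Uhrf1, 5.11 kb in Dnmt3b and 7.38 kb in Dnmt1, but to 15.5 to 16.9 kb in Dnmt3a and the 3 Tet genes, which are longer than 97.8% of the genes tested.

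All 7 genes have promoter windows in RefSeq (GRCm38.p6; 250 bases before to 50 after a start, 12 windows in all). For each gene the window with the most CpG sites was read, and 4 are printed because Dnmt1 and Uhrf1 act as a pair, and Tet2 and Tet3 had nearly the same pattern of levels across libraries. They are chr9:20952574-20952873 (minus strand) for Dnmt1, chr17:56304063-56304362 (plus) for Uhrf1, chr3:133544341-133544640 (minus) for Tet2 and chr6:83441629-83441928 (minus) for Tet3. Capitals mark matches, on either strand, to TTTNGCGC, the core of sites bound by E2F factors, and to CCAAT, the core of sites bound by NF-Y. Both motifs were chosen after the sequences had been seen.
Dnmt1: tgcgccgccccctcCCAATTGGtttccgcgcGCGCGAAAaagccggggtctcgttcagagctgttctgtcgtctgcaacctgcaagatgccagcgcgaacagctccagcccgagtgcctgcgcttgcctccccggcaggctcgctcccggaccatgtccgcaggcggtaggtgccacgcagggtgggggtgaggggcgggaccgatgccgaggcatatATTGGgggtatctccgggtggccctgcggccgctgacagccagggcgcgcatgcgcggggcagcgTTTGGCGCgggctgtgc
Uhrf1: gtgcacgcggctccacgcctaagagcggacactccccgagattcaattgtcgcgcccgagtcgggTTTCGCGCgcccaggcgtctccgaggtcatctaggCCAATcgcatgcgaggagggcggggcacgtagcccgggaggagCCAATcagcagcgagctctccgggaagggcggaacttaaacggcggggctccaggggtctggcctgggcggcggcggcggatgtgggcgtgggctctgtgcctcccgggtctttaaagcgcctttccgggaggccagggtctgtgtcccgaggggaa
Tet2: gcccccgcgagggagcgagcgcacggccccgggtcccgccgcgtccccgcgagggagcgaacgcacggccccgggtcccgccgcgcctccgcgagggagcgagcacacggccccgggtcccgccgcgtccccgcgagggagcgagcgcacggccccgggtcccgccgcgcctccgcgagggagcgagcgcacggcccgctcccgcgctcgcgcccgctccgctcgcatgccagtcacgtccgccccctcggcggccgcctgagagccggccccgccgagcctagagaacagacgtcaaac
Tet3: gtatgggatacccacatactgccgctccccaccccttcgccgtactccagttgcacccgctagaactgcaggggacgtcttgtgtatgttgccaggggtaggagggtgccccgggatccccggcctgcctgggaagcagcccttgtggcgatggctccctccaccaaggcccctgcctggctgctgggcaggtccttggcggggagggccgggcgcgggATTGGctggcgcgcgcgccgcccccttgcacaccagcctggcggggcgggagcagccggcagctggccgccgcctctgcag
The Dnmt1 window holds 33 CpG sites, 2 matches to TTTNGCGC and 3 to CCAAT, of which 2 overlap each other on opposite strands. The Uhrf1 window holds 33 CpG sites, 1 match to TTTNGCGC and 2 to CCAAT. No TTTNGCGC was found in the chosen windows of the other 5 genes, and of these the Tet3 window alone holds a CCAAT. Over all 32851 windows, 1.376% hold TTTNGCGC, 37.41% hold CCAAT and 0.5936% hold both. The windows read were chosen for their CpG sites, and TTTNGCGC itself holds a CpG. The shares over all windows are therefore not those of windows as rich in CpG, which were not counted. The windows of Dnmt1 and Uhrf1 that were not chosen hold no TTTNGCGC. The Tet2 window has 57 CpG sites and the Tet3 window 22, against a median of 7 over all windows. Such a match describes letters and does not show that a factor binds there.

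Levels were compared between genes as CPM per kb of merged exons. Merged exons pool every annotated form of a gene, and the order depends on these lengths. By this measure the copying pair ranked highest in every group. By mean CPM alone, Tet3 was above Uhrf1 in young WT (272 against 172.9) and young MT (267.2 against 172). In old cells they were close (93.71 against 91.03 in WT, 96.02 against 97.44 in MT), and in LK cells Uhrf1 was higher. In young WT cells Dnmt1 was at 47.6 ± 4.51 CPM per kb (mean ± SD, n = 4) and Uhrf1 at 40.6 ± 4.39, with overlapping libraries, followed by Tet3 at 16.3 ± 0.265, Tet2 at 9.2 ± 0.993 and Dnmt3a at 4.45 ± 0.117. Dnmt3b (1.419 to 2.098 CPM per kb) and Tet1 (1.203 to 1.695) came last and overlapped. In old WT cells the order was Dnmt1 at 30.5 ± 0.444, Uhrf1 at 21.4 ± 0.808 and Tet3 at 5.61 ± 0.832 CPM per kb, then Tet2 at 3.15 ± 0.275 and Dnmt3a at 3.15 ± 0.346, which overlapped, then Dnmt3b at 0.371 ± 0.0848 and Tet1 at 0.222 ± 0.0188 (n = 3 each). In LK WT cells Uhrf1 (60.1 ± 1.09 CPM per kb) and Dnmt1 (58.7 ± 3.84) overlapped, and Dnmt3b came next at 6.15 ± 0.196, above Dnmt3a at 3.69 ± 0.1003, Tet3 at 3.03 ± 0.08204, Tet2 at 1.54 ± 0.279 and Tet1 at 0.498 ± 0.0415. LK MT cells kept the WT order, but Uhrf1 (58 ± 0.743 CPM per kb) and Dnmt1 (46.4 ± 0.977) no longer overlapped.

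The makeup of each enzyme family was read as shares of its summed CPM per kb, which rest on the same exon lengths. Dnmt1 made up 83.97% to 89.86% of the summed level of the 3 Dnmt genes, as group means. Dnmt3b made up 8.998% ± 0.748 (SD, n = 3) in LK WT and 10.28% ± 0.113 in LK MT, but 1.089% ± 0.22 in old WT and 1.569% ± 0.195 in old MT. Among the 3 Tet genes, Tet3 held 59.9% to 62.61% in every group. Tet1 held 9.819% ± 0.552 in LK WT and 2.504% ± 0.431 in old WT, and Tet2 held 30.28% ± 3.62 and 35.16% ± 1.66.

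**Figure D1:**
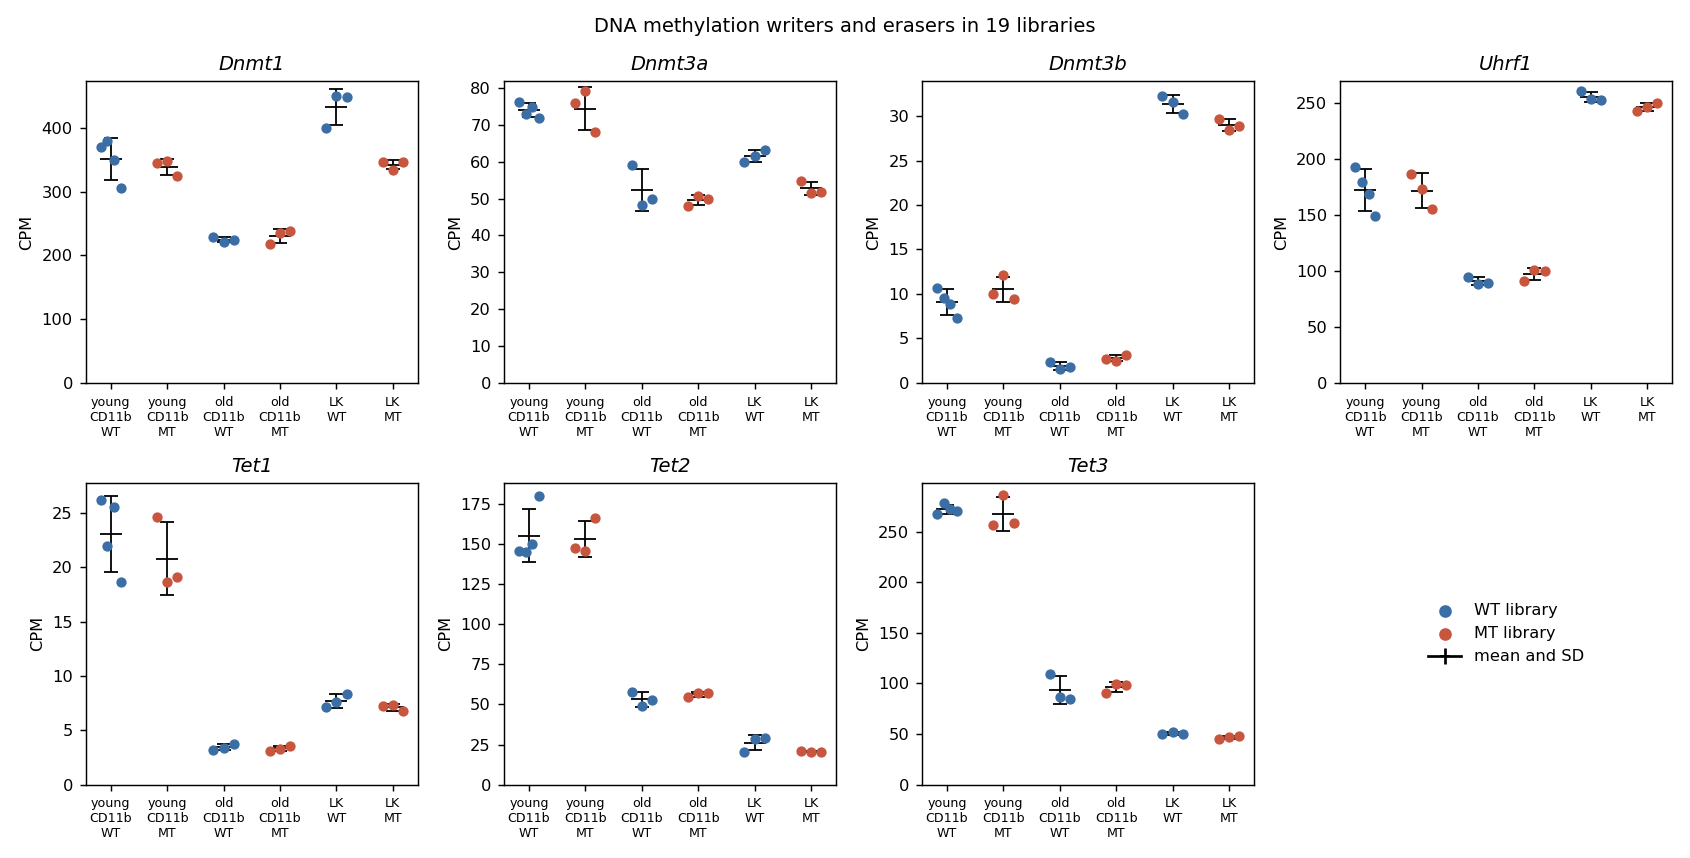
CPM (scaled counts, y axis from 0) of the 7 genes in 19 libraries, by group on the x axis; points are libraries (blue WT, red MT), black bars the mean and SD. Dnmt1, Uhrf1 and Dnmt3b are highest in LK WT cells, Tet1, Tet2 and Tet3 are highest in young CD11b cells, and MT and WT points of Dnmt1 separate in LK cells only.

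Cell type was compared between LK and CD11b cells of the same age and genotype, in the WT libraries and separately in the MT libraries. Fold changes are log2 values from edgeR's quasi-likelihood fit with their standard errors, with Benjamini-Hochberg adjustment over all genes tested, and a gene is called at an adjusted p under 0.05. In WT libraries 6 of the 7 genes were called, beside 86.8% of all genes tested, and in MT libraries 6 of 7, beside 87.8%, so the number called says little here and the sizes carry the description. The groups did not overlap for any of the 7, beside 88.6% of all genes in WT and 89.5% in MT. The median log2 fold change of all genes ran from -0.0138 to 0.15 in WT and from 0.00234 to 0.177 in MT with the scaling used, and the values below are relative to it. These are sorted populations, in which fewer cells of a type and less RNA per cell cannot be told apart.

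Dnmt3b, a de novo methyltransferase, had the largest difference of the 7. It was at 32.2, 31.6 and 30.3 CPM in the LK WT libraries and at 2.38, 1.53 and 1.78 CPM in old WT CD11b cells. The MT libraries gave 29.7, 28.4 and 28.9 CPM in LK cells and 2.74, 2.44 and 3.16 CPM in CD11b cells. Every LK library was therefore several times above every CD11b library, with a log2 fold change of 3.94 ± 0.14 (adjusted p = 1.67e-08; 15.3-fold) in WT and 3.29 ± 0.094 (adjusted p = 6.65e-10; 9.77-fold) in MT. In old CD11b cells its counts were 52 to 138 per library.

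The copying pair was also higher in LK cells. Uhrf1 was at 261, 254 and 253 CPM in LK WT and 95, 88.5 and 89.6 CPM in old WT, and at 244, 247 and 250 CPM in LK MT and 91.1, 101 and 100.2 CPM in old MT. No LK library overlapped a CD11b library, and the log2 fold change was 1.40 ± 0.0476 in WT (adjusted p = 1.63e-08) and 1.24 ± 0.0444 in MT (adjusted p = 3.06e-09). Dnmt1 was at 400.1, 450.4 and 448 CPM in LK WT against 228, 222 and 225 CPM in old WT, and at 346, 334 and 346 CPM in LK MT against 218, 235 and 238 CPM in old MT. The groups did not overlap, and the log2 fold change was 0.85 ± 0.0659 in WT (adjusted p = 3.07e-06) and 0.47 ± 0.0445 in MT (adjusted p = 4.59e-06). Dnmt3a, the other de novo enzyme, stood at 59.9, 61.5 and 63.2 CPM in LK WT and 59, 48.3 and 49.8 CPM in old WT, and at 54.8, 51.6 and 51.9 CPM in LK MT and 48, 50.6 and 49.9 CPM in old MT. It was not called in either genotype, at 0.14 ± 0.0821 in WT (95% interval -0.05 to 0.33) and -0.01 ± 0.043 in MT (-0.10 to 0.09), and its sign in MT libraries turned with the scaling (0.09 with all 19 libraries scaled together, as the CPM are). With a trend on transcript length removed, an alternative chosen after seeing the data, Dnmt3a was higher by 0.47 on the log2 scale in LK WT cells (adjusted p = 7.37e-05; range over 13 alternatives 7.37e-05 to 0.608) and by 0.62 in LK MT cells (adjusted p = 1.78e-07; range 1.78e-07 to 0.978), and all 7 genes were called. Dnmt3a in WT was also called without old WT replicate 1 (0.23, adjusted p = 0.00396) and in the fit of all 19 libraries (0.23, adjusted p = 0.00424).

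The erasers split. Tet2 was lower in LK cells, at 20.6, 28.6 and 28.9 CPM in LK WT and 58, 48.7 and 52.7 CPM in old WT, and at 21, 20.2 and 20.4 CPM in LK MT and 54.7, 57 and 57 CPM in old MT. Its log2 fold change was -1.12 ± 0.14 in WT (adjusted p = 7.86e-05) and -1.55 ± 0.0432 in MT (adjusted p = 5.71e-10). Tet3 was lower as well, at 50.04, 52.2 and 49.6 CPM in LK WT against 109.7, 86.3 and 85 CPM in old WT, with log2 fold changes of -0.98 ± 0.0995 in WT (adjusted p = 1.9e-05) and -1.13 ± 0.0449 in MT (adjusted p = 6.5e-09). Tet1 went the other way from a low level, at 7.11, 7.61 and 8.38 CPM in LK WT and 3.21, 3.33 and 3.76 CPM in old WT, a log2 fold change of 1.07 ± 0.12 (adjusted p = 3.98e-05), and of 1.001 ± 0.11 in MT (adjusted p = 1.38e-05). With the length trend removed, Tet2 and Tet3 were -0.80 and -0.65 in WT and -0.92 and -0.50 in MT, and stayed called. Neutrophil markers, which CD11b sorting enriches, summed to 451.3 to 3685 CPM in LK and 147000 to 177800 CPM in old CD11b libraries, and 10 of 10 were lower in LK cells in either genotype. The 18 S phase genes summed to 4950 to 5346 CPM in LK and 1479 to 1738 CPM in old CD11b libraries, and all 18 were higher in LK cells. The 15 G2 and M phase genes overlapped, at sums of 2989 to 3665 CPM in LK and 3036 to 3366 CPM in old CD11b libraries. Of these genes, 11 were called higher and 1 lower in LK cells in WT, and 10 and 5 in MT. The part of these lists in the differences of the 7 genes was not tested.

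**Figure D2:**
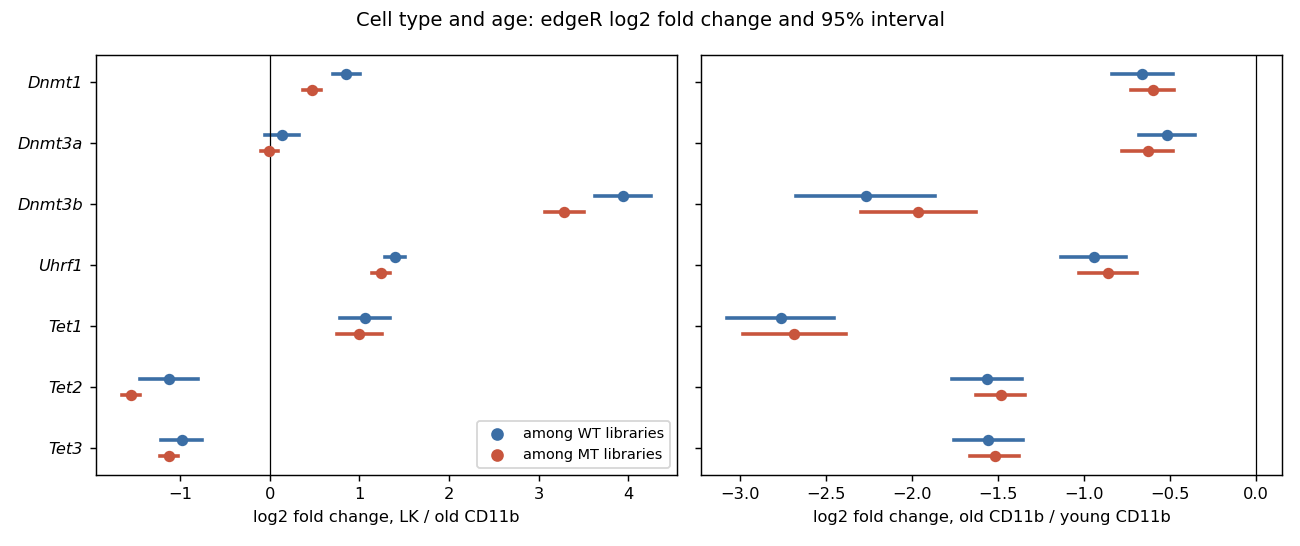
Log2 fold changes (x axis) of the 7 genes (rows) for LK over old CD11b cells, left, and old over young CD11b cells, right, in WT (blue) and MT (red) libraries; lines are 95% intervals. Dnmt3b reaches 3.94 in WT on the left, where Tet2 and Tet3 lie below 0, and all 14 points on the right lie below 0.

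In CD11b cells, all 7 genes were lower at 18 than at 4 months, in WT and in MT libraries, beside 36.9% and 36.5% of all genes called lower (73.1% and 71.7% called in either direction). The groups did not overlap for any of the 7, beside 72.1% and 75.9% of all genes. The median log2 fold change of the 7 was -1.56 in WT and -1.48 in MT, against -0.0152 and -0.0247 over all genes. Young and old libraries differed in more than age. TE counts per 1000 gene counts were 114 to 169.1 in the young set and 33.42 to 36.43 in the old set (transposable element transcripts were counted in the same libraries), neutrophil markers summed to 45700 to 61730 CPM in young and 147000 to 177800 CPM in old libraries with 10 of 10 higher in old cells, and the mix of Xist and Ddx3y libraries differed as above. Stem and progenitor markers also moved, from 203.3 to 248.5 CPM in young to 94.63 to 105.2 CPM in old libraries (8 of 10 called lower in either genotype), as did early granulocyte genes, from 3822 to 6831 CPM to 1242 to 1749 CPM. Of other cell types, 7 of 8 B cell genes were called lower in WT and 4 of 8 in MT, and 6 and 4 of 8 T and NK cell genes (1 and 2 were called higher). Erythroid genes were called lower in 5 and 2 of 6 cases (1 higher in each genotype), and 6 of 8 monocyte and macrophage genes were called higher and 1 lower in either genotype. The element ratio did not overlap between the sets, so it and age cannot be told apart, and the part of these cell markers in the differences of the 7 genes was not tested. The old libraries are the same ones that entered the cell type comparison. A fit with only the young libraries that hold Ddx3y counts (MT replicate 3 and WT replicate 4, an alternative chosen after seeing the data, in which the lone young library is assumed to vary like the others) called all 7 lower in both genotypes, with log2 fold changes from -2.43 (Tet1) to -0.44 (Dnmt1) in WT and from -2.56 (Tet1) to -0.49 (Dnmt3a) in MT.

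Tet1 had the largest age difference of the 7. It was at 26.2, 21.9, 25.5 and 18.6 CPM in young WT and 3.21, 3.33 and 3.76 CPM in old WT, and at 24.6, 18.6 and 19.1 CPM in young MT and 3.12, 3.303 and 3.56 CPM in old MT. The fit gave a level 6.79-fold lower in old WT (log2 -2.76 ± 0.14, adjusted p = 8.91e-08) and 6.43-fold lower in old MT (log2 -2.69 ± 0.13, adjusted p = 3.47e-07). Tet2 was at 146, 145, 149.9 and 180.1 CPM in young WT and 148, 146 and 166 CPM in young MT, above every old library (48.7 to 58.0 CPM). Its log2 fold change was -1.56 ± 0.0931 in WT (adjusted p = 2.09e-07) and -1.49 ± 0.0624 in MT (adjusted p = 1.64e-07). Tet3 was at 267, 278, 272 and 270.5 CPM in young WT and 109.7, 86.3 and 85 CPM in old WT, and at 257, 286 and 258 CPM in young MT and 90.3, 99 and 98.7 CPM in old MT. It changed by -1.56 ± 0.0908 in WT (adjusted p = 1.9e-07) and -1.52 ± 0.0628 in MT (adjusted p = 1.53e-07), close to Tet2 in either genotype.

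Among the writers, Dnmt3b was at 10.7, 9.502, 8.89 and 7.25 CPM in young WT and 10.1, 12.1 and 9.39 CPM in young MT, against 1.53 to 3.16 CPM in the 6 old libraries. The log2 fold change was -2.27 ± 0.18 in WT (adjusted p = 1.41e-06) and -1.96 ± 0.15 in MT (adjusted p = 3.01e-06). Uhrf1 was at 193, 180.1, 169 and 149 CPM in young WT and 187, 174 and 156 CPM in young MT, all above the old libraries, with log2 fold changes of -0.94 ± 0.085 (WT, adjusted p = 3.07e-06) and -0.86 ± 0.0745 (MT, adjusted p = 7.19e-06). Dnmt1 stood at 369.9, 379.9, 349 and 305 CPM in young WT and 344, 348 and 325 CPM in young MT, and fell by 0.66 in WT and 0.60 in MT on the log2 scale (adjusted p = 2.81e-05 and 1.1e-05). Dnmt3a stood at 76.2, 73, 75 and 71.8 CPM in young WT and 59, 48.3 and 49.8 CPM in old WT, a difference of -0.52 ± 0.0745 (adjusted p = 9.77e-05), and at 76, 79.3 and 68 CPM in young MT and 48, 50.6 and 49.9 CPM in old MT, a difference of -0.63 ± 0.0658 (adjusted p = 2.45e-05). With genes cut by length into 5 equal bins, the longest bin had median log2 fold changes of -0.346 in WT and -0.338 in MT. With the length trend removed, the Dnmt3a call was lost in both genotypes (0.11, adjusted p = 0.126, within 2.5e-08 to 0.126 over alternatives, and -0.05, adjusted p = 0.54, within 9.33e-14 to 0.54), and the other 6 genes were still called lower, Tet2 by -0.93 in WT and -0.90 in MT. The S phase list was lower in part, with 11 of 18 genes called lower and 2 higher in WT, and 9 and 2 in MT. Of 15 G2 and M phase genes, 7 were called higher and 3 lower in WT, and 7 and 2 in MT. A difference in the MT effect between the ages, tested as an interaction, was not called for any of the 7 (0 of 7 in edgeR, beside 0.0214% of all genes, and 0 of 7 at an unadjusted p under 0.05, where 7.38% of all genes had one; DESeq2 also called 0 of the 7).

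MT was compared with WT separately for each sorted population. None of the 7 genes was called by edgeR in young CD11b cells, in a comparison that called 0 of 13755 genes (0%; 3.23% of genes had an unadjusted p under 0.05, none of them among the 7, and DESeq2 called 0 of the 7). MT and WT libraries overlapped for all 7, where 4.44% of all genes had no overlap. The widest interval belonged to Dnmt3b, at 10.1, 12.1 and 9.39 CPM in MT and 10.7, 9.502, 8.89 and 7.25 CPM in WT, with a log2 fold change of 0.21 ± 0.14 (95% interval -0.11 to 0.54). For Dnmt1 the interval was -0.23 to 0.13, for Dnmt3a -0.14 to 0.15, for Uhrf1 -0.22 to 0.20, for Tet1 -0.46 to 0.16, for Tet2 -0.22 to 0.18 and for Tet3 -0.16 to 0.11.

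In old CD11b cells none of the 7 was called either, beside 0.336% of all genes, and 1 of 7 had an unadjusted p under 0.05, beside 16.6% of all genes (DESeq2 called 0 of the 7). That gene was Dnmt3b, at 2.74, 2.44 and 3.16 CPM in MT and 2.38, 1.53 and 1.78 CPM in WT. All MT libraries lay above all WT libraries. It was the 1 gene of the 7 with no overlap, beside 22.5% of all genes. The log2 fold change was 0.54 ± 0.19 (95% interval 0.10 to 0.98, unadjusted p = 0.0224, adjusted p = 0.225). Leaving out old WT replicate 1 changed this: without it Dnmt3b was called at 0.73 (adjusted p = 0.0268, within 0.0268 to 0.936 over 14 alternatives) and Tet3 at 0.16 (adjusted p = 0.0372, within 0.0372 to 0.998), in a fit that called 1819 genes in place of 45. Tet3 in that library was at 109.7 CPM, above the other 2 WT libraries at 86.3 and 85.05 CPM and the MT libraries at 90.3, 99 and 98.7 CPM. The others had log2 fold changes between -0.09 (Dnmt3a) and 0.09 (Uhrf1).

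In LK cells 4 of the 7 genes were called, all lower in MT, beside 29.8% of all genes called and 15.9% called lower. The 4 were Dnmt1, Dnmt3a, Dnmt3b and Tet3, and the median log2 fold change of the 7 was -0.144, against 0.0196 over all genes. DESeq2 called these and also Uhrf1 and Tet2 lower (adjusted p = 0.0439 and 0.0134), but not Tet1. All 7 point estimates were below 0, and MT and WT libraries did not overlap for 5 of the 7 (beside 43.4% of all genes, 21.1% with MT lower). The changes were small, with the largest called at 1.29-fold.

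Dnmt1 moved most among the called genes. Its level was 346, 334 and 346 CPM in LK MT and 400.1, 450.4 and 448 CPM in LK WT. The lowest WT library, replicate 1, was still above the highest MT library. The log2 fold change was -0.37 ± 0.0614 (95% interval -0.51 to -0.23, adjusted p = 0.00758), a size above that of 81.3% of the genes tested. Of 14 alternatives, 11 still called it, and adjusted p ran from 6.58e-07 to 0.177, the highest with replicates 2 and 3 summed, which leaves 2 libraries a group. Its partner Uhrf1 was at 244, 247 and 250 CPM in LK MT and 261, 254 and 253 CPM in LK WT. The groups did not overlap, but the difference of -0.08 ± 0.0319 missed the threshold (adjusted p = 0.0849), except by DESeq2 (adjusted p = 0.0439) and without LK WT replicate 1 (adjusted p = 0.0195), within a range of 0.0195 to 0.677.

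The de novo enzymes changed less. Dnmt3a was at 54.8, 51.6 and 51.9 CPM in MT and 59.9, 61.5 and 63.2 CPM in WT, with no overlap, and its log2 fold change was -0.25 ± 0.0515 (adjusted p = 0.012). Dnmt3b was at 29.7, 28.4 and 28.9 CPM in MT and 32.2, 31.6 and 30.3 CPM in WT, also with no overlap, a change of -0.14 ± 0.0466 just inside the threshold (adjusted p = 0.0494). Tet3 was at 45.2, 47.5 and 48.2 CPM in MT and 50.04, 52.2 and 49.6 CPM in WT, with a change of -0.14 ± 0.0404 (adjusted p = 0.0359) and no overlap. These 3 calls were each lost when any 1 of LK MT replicates 2 and 3 and LK WT replicates 2 and 3 was left out, with adjusted p of 0.057 to 0.0623 for Dnmt3a, 0.0945 to 0.178 for Dnmt3b and 0.102 to 0.145 for Tet3. Tet3 was also lost without LK MT replicate 1 (0.0622). Of the 14 alternatives, 6 kept the call for Dnmt3a, 4 for Dnmt3b and 4 for Tet3, and adjusted p ran from 0.000521 to 0.777 for Dnmt3a, from 0.0218 to 0.557 for Dnmt3b and from 0.00782 to 0.348 for Tet3. With replicates 2 and 3 summed, none of the 7 was called and only 3 of all genes were.

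Tet2, the eraser most tied to blood cancers, had as large an estimate as Dnmt1 but was not called in the edgeR fit of the 6 LK libraries. It was at 21, 20.2 and 20.4 CPM in LK MT and 20.6, 28.6 and 28.9 CPM in LK WT. LK WT replicate 1 lay inside the MT range, apart from the other 2 WT libraries, and the log2 fold change was -0.37 ± 0.13 (95% interval -0.68 to -0.06, adjusted p = 0.0691). Without that library it was -0.55 (adjusted p = 0.000219; range over 14 alternatives 0.000219 to 0.534), and 6 of the 7 genes were called, in a fit that called 5569 genes in place of 4206. Tet2 was called under 3 of the 14 alternatives. The others were DESeq2 (-0.38, adjusted p = 0.0134) and the fit of all 19 libraries (-0.34, adjusted p = 0.032). Tet1 was at 7.28, 7.33 and 6.77 CPM in MT and 7.11, 7.61 and 8.38 CPM in WT, which overlapped, with a change of -0.14 ± 0.098 (adjusted p = 0.314).

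**Figure D3:**
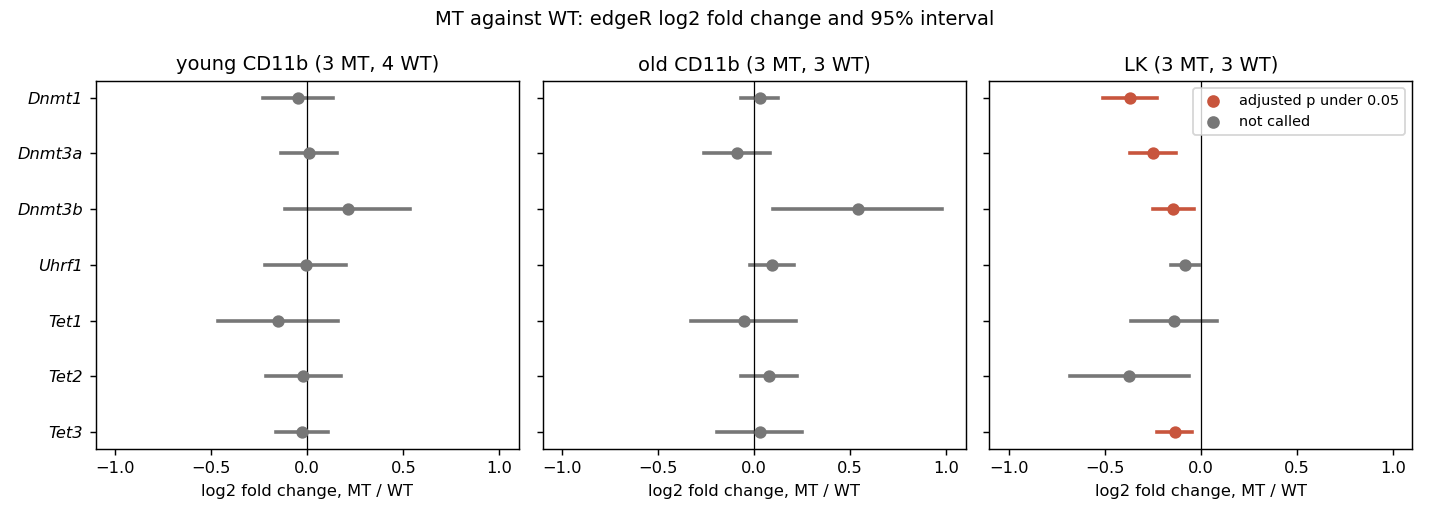
Log2 fold change of MT over WT (x axis) for the 7 genes (rows) in young CD11b, old CD11b and LK cells; points are edgeR estimates, lines 95% intervals, red where the adjusted p is under 0.05. Only the LK panel has red points (Dnmt1, Dnmt3a, Dnmt3b and Tet3), all below 0.

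Gene length moved with these LK differences. Across 12556 genes with a length, the LK log2 fold change and exon length had a Spearman correlation of -0.44, and the median log2 fold change was 0.195 in the shortest of 5 equal bins of genes and -0.154 in the longest. Dnmt3a and the 3 Tet genes are in the longest bin, Dnmt1 is in bin 4 (median -0.0546), and Dnmt3b and Uhrf1 are in bin 3 (median 0.00201). After a smooth trend on length had been removed from each library, Dnmt1 remained called at -0.26 (adjusted p = 0.00923), Uhrf1 was at -0.08 and Dnmt3b at -0.11 (adjusted p = 0.0715 and 0.125). Dnmt3a, Tet1 and Tet3 then lay above 0, at 0.02, 0.12 and 0.13, with no call, and Tet2 was at -0.09. For MT against WT the correlation was 0.05 within young and 0.18 within old CD11b cells. The source of the length trend was not tested.

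**Figure D4:**
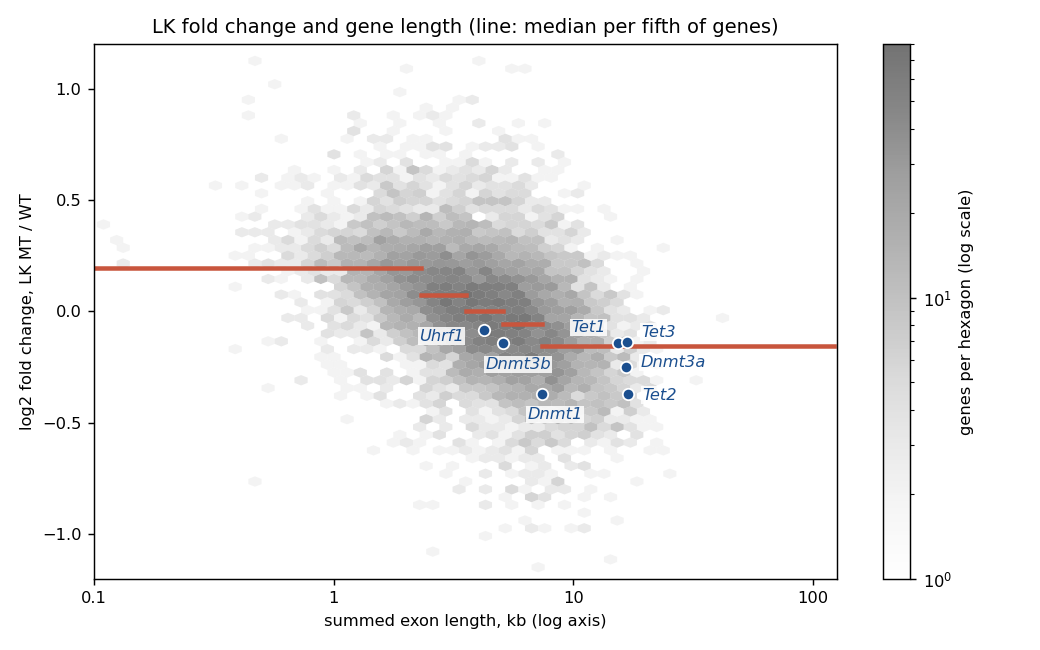
LK log2 fold change of MT over WT (y axis) against summed exon length in kb (log x axis) for genes with a value between -1.2 and 1.2; grey shows the number of genes per hexagon, red lines the median of each of 5 bins of genes by length, from 0.195 to -0.154, and blue points the 7 genes. Dnmt3a, Tet1, Tet2 and Tet3 sit at the long end; Tet1 and Tet3 lie near the median of their bin, and Dnmt1 lies below the median of its own.

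**Figure D5:**
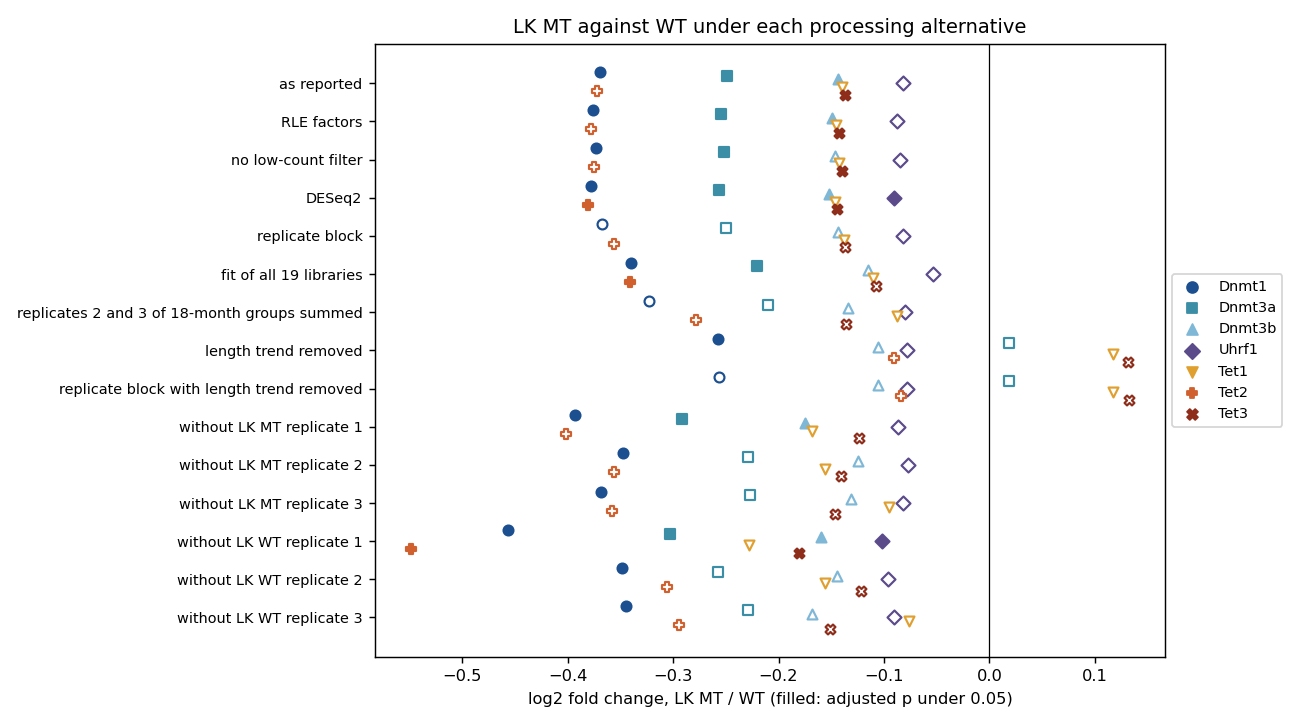
LK log2 fold change of MT over WT (x axis) of the 7 genes as reported and under each of 14 alternatives (rows); filled symbols have an adjusted p under 0.05. Dnmt1 is filled in 11 of the 14 alternatives, and Dnmt3a, Tet1 and Tet3 move to the right of 0 where the length trend is removed.

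Cell makeup and division were read in the same LK libraries. The counts of called genes below stand beside 29.8% of all genes called in either direction and 15.9% called lower in MT. Early granulocyte genes (Mpo, Elane, Prtn3, Ctsg and Ms4a3) were called higher in MT in 5 of 5 cases, at summed levels of 13890 to 17200 CPM in MT and 12120 to 13770 CPM in WT, and all 5 were above 0 in every library. Neutrophil genes summed to 1062 to 3685 CPM in MT and 451.3 to 957 CPM in WT, with 1 of 9 tested called higher (S100a8), a count that ran from 0 to 9 over the alternatives, and no gene of the 10 listed was at 0 in any library. In LK MT replicate 1 (1062 CPM) and LK WT replicate 1 (957 CPM) the neutrophil sums were close. Erythroid genes summed to 1586 to 1668 CPM in MT and 1791 to 1832 CPM in WT, with 1 of 7 called lower, and 2 of 8 T and NK cell genes were called higher, at 191.8 to 249.3 CPM in MT and 155.2 to 193.1 CPM in WT. Of 8 monocyte and macrophage genes 3 were called lower and 1 higher, and of 8 B cell genes 1 was called higher. Stem and progenitor genes summed to 489 to 599.4 CPM in MT and 551.2 to 571 CPM in WT, with 1 of 10 called higher and 2 lower. Megakaryocyte genes summed to 264.6 to 417 CPM in MT and 220.9 to 283.3 CPM in WT, with 1 of 6 called higher. LK MT replicate 1 was the highest LK library in both lists. Of the list of Xist and Y-linked genes, 4 were tested and all 4 were called lower in MT (median log2 fold change -0.393). Their list summed to 147.3 to 153.6 CPM in MT and 170.1 to 189.3 CPM in WT. With the length trend removed 4 were called lower, and 1 was without LK MT replicate 2 or LK MT replicate 3. S phase genes summed to 4950 to 5142 CPM in MT and 5269 to 5346 CPM in WT, with 6 of 18 called lower and 1 higher, and G2 and M phase genes to 2989 to 3075 and 3321 to 3665 CPM, with 7 of 15 lower and 1 higher. Without LK MT replicate 2, LK MT replicate 3, LK WT replicate 2 or LK WT replicate 3, the early granulocyte and S phase counts went to 0. In these fits 2 of 15 G2 and M phase genes were called lower. With the length trend removed 2 of 5 early granulocyte genes were called higher. In that fit 6 of 18 S phase and 8 of 15 G2 and M phase genes were called lower, and 1 of each list higher. The part of all these lists in the changes of the 7 genes was not tested.

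Whether the MT effect differed between LK and old CD11b cells was tested as an interaction term over the 12 libraries of 18 months. It called 2 of the 7 genes, beside 20.7% of all genes (12% with a negative term), and 4 of the 7 had an unadjusted p under 0.05, beside 35.4%. For Dnmt1 the LK change minus the old CD11b change was -0.41 ± 0.0842 (95% interval -0.59 to -0.22, adjusted p = 0.0101), from means of 342 ± 7.203 (MT) and 433 ± 28.3 (WT) CPM in LK and 230.2 ± 10.5 and 225 ± 3.28 CPM in old cells (SD, n = 3). For Dnmt3b it was -0.68 ± 0.17 (95% interval -1.04 to -0.31, adjusted p = 0.0178), from means of 29 ± 0.642 (MT) and 31.4 ± 1 (WT) CPM in LK and 2.78 ± 0.361 and 1.896 ± 0.433 CPM in old cells. Fitted apart, the Dnmt3b change was -0.14 in LK cells and 0.54 in old cells, where edgeR did not call it (adjusted p = 0.225). Dnmt1 was called under 18 of 19 alternatives and lost with replicates 2 and 3 summed (adjusted p = 0.373; range 0.000103 to 0.373). The Dnmt3b call was lost there (0.363) and without old MT replicate 3, old WT replicate 3, LK MT replicate 2 or LK WT replicate 2 (adjusted p = 0.0508 to 0.0547; range over alternatives 0.000574 to 0.363). With the length trend removed, both were called, at -0.26 (adjusted p = 0.0254) and -0.63 (adjusted p = 0.0288). Without old WT replicate 1, 6 of the 7 were called, all but Tet1, in a fit that called 4168 genes in place of 2904.

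The genes around the 7 enzymes were read from lists of partners and related genes. Of 10 tested partners of the writers, 3 were called lower in LK MT cells and none higher, beside 15.9% of all genes called lower and 29.8% called in either direction. They were Usp7, a deubiquitinase that stabilises DNMT1 and UHRF1 (-0.23 ± 0.0363, adjusted p = 0.00701), Nsd1, a histone H3 lysine 36 methyltransferase (-0.34 ± 0.0638, adjusted p = 0.00971), and Hells, a chromatin remodeller needed for methylation of repeats (-0.16 ± 0.0362, adjusted p = 0.016). The list's median was -0.0314, beside 0.0196 over all genes. With the length trend removed 1 of the 10 was called, and 1 or 2 were without any 1 of LK MT replicates 2 and 3 and LK WT replicates 2 and 3.

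The methyl donor cycle, which makes S-adenosylmethionine and clears its product, had 8 of 11 genes lower in LK MT and none higher, with a median of -0.224, beside the same 15.9% of all genes called lower. Mthfd1, a folate enzyme, was at -0.22 ± 0.0355 (adjusted p = 0.00708), and Mat2a, the S-adenosylmethionine synthetase, at -0.24 ± 0.0388 (adjusted p = 0.00733). With the length trend removed 6 of 11 were called lower, at a median of -0.212. Without LK MT replicate 2, LK MT replicate 3, LK WT replicate 2 or LK WT replicate 3, 4 of 11 were. Readers of methylated CpG gave 5 of 8 lower and 1 higher, beside 29.8% of all genes called in either direction (2 and 0 with the length trend removed, and 0 and 0 without any 1 of those 4 libraries). Zbtb38 was at -0.79 ± 0.17 (adjusted p = 0.0159), Mbd1 at -0.20 ± 0.046 (adjusted p = 0.0156), Zbtb33 at -0.18 ± 0.0521 (adjusted p = 0.0325), and Mbd3, which does not bind the mark itself, was higher at 0.17 ± 0.0368 (adjusted p = 0.0139).

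Among 14 tested genes that act with the TET enzymes, 4 were called higher and 2 lower in LK MT. Of all genes tested, 29.8% were called in either direction and 15.9% lower. The list's median was 0.00907, beside 0.0196 over all genes. With the length trend removed the counts were 2 and 3, and without any 1 of the same 4 libraries at most 2 and 1. Gadd45a and Gadd45g, stress genes linked to active demethylation, were at 0.37 ± 0.0673 and 0.37 ± 0.085 (adjusted p = 0.00889 and 0.0161). Idh1, a source of the 2-oxoglutarate that TET enzymes use, was at 0.22 ± 0.0519 (adjusted p = 0.018). The lower genes were Ogt, the O-GlcNAc transferase that binds TET proteins (-0.25 ± 0.0479, adjusted p = 0.0101), and Tdg, the glycosylase that excises oxidised bases (-0.28 ± 0.0705, adjusted p = 0.021). With replicates 2 and 3 summed none of the genes of these 4 lists was called. In young and in old CD11b cells none of the 42 genes tested was called between MT and WT by edgeR (3 in young and 14 in old cells had an unadjusted p under 0.05, beside 3.23% and 16.6% of all genes, and DESeq2 called 0 and 4).

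Between LK and old CD11b cells of WT animals, differences in the same lists were larger in size, in a comparison that called 86.8% of all genes. The donor cycle had 9 of 11 genes called higher in LK and 1 lower, with Mthfd1 at 5.07, Shmt2 at 3.47 and Shmt1 at 2.86 (adjusted p = 3.43e-10, 2.5e-09 and 2.35e-09). On the writers' list 7 of 10 were higher and 3 lower. Hells was at 1.84, Lig1, the replication ligase, at 1.40 and Pcna, the replication clamp, at 1.32. The lower genes were Dnmt3l at -2.37, Nsd1 at -0.79 and Trdmt1 at -0.76 (adjusted p of all these genes from 3.31e-09 to 0.000125). Dnmt3l was at a low level, with means of 0.556 CPM in LK WT and 2.788 CPM in old WT. The TET partners split 7 higher and 6 lower of 14, with Apex1, the abasic site nuclease, at 4.08 and Idh2 at 2.95, against Gadd45g at -3.66, Gadd45a at -2.94 and Idh1 at -1.58. Of the readers 3 of 8 were higher, Zfp57, Mbd3 and Mbd1, and 5 lower, among them Mbd2 at -0.91 and Zbtb33 at -0.85. Zfp57 was at a low level, with means of 1.199 CPM in LK WT and 0.03835 CPM in old WT.

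Across the 19 libraries, the 7 genes fell into patterns that can be given as correlations of log2 CPM, as a description only, since libraries share groups, cell type and depth. Tet2 and Tet3 had r = 0.99, Dnmt3b and Uhrf1 0.99, and Dnmt1 and Uhrf1 0.94. With group means removed, which leaves differences between replicates, Dnmt1 and Uhrf1 had r = 0.73, Dnmt3a and Tet3 0.73, Dnmt3a and Dnmt3b 0.71, but Tet2 and Tet3 0.23. Tet2 and Uhrf1 had -0.31 over the libraries and -0.45 with group means removed. Over 12012 genes with a mean of at least 50 counts, the 3 most like Dnmt1 by Pearson's r over 19 libraries were Ints1 (0.992), Fam38a (0.988) and Mtr (0.987), and those most like Uhrf1 were Slc7a6 (0.997), Slc16a1 (0.996) and Pprc1 (0.996). The nearest to Dnmt3a were Itpr3 (0.979), Erbb3 (0.976) and Cd200r3 (0.973), and to Dnmt3b Lphn1 (0.996), Usp36 (0.995) and Ccdc8 (0.994). For Tet1 they were C230096C10Rik (0.989), Zkscan1 (0.987) and B230120H23Rik (0.985), for Tet2 Tnrc6c (0.997), Jarid2 (0.996) and Rfx3 (0.996), and for Tet3 Ino80d, Crebbp and Dyrk1a (0.997 each).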

How the data were processed

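RNA of 19 libraries was prepared with a directional kit, per the labels' protocols. The authors deposited, for each library, counts in whole numbers by gene symbol and by transposable element. The submitters' processing notes name STAR, HTSeq, DESeq2 and the build mm10. Tool versions, the annotation, strand settings and how multiply matching reads were treated are not given in the sources used here. Of the exon bases of the members, 0.799% in Dnmt3a and 0.255% in Tet2 overlap an antisense gene. No gene summed to under 10 counts over a set's libraries. Element counts served only for the ratio to gene counts.

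Each comparison was fitted on its own libraries with edgeR 4.0.16 (R 4.3.3, limma 3.58.1, statmod 1.5.0), using filterByExpr, TMM factors and the robust quasi-likelihood test. P-values were adjusted by Benjamini and Hochberg's method across every gene tested. Comparisons across sets used symbols listed in both. CPM were scaled with TMM over all 19 libraries, so a ratio of CPM can differ from a fitted fold change. Lengths are merged exons of GENCODE genes, matched by symbol for 87.9% to 88.2% of listed genes. The length trend is a loess (span 0.5) of each library's log2 ratio to the set mean, with 0.5 added to counts, entered as an offset. Alternatives were RLE factors, no filter, DESeq2 1.42.0, a replicate block, 1 fit of all libraries, summed replicates, a covariate for sex-linked expression, the length trend and leaving out each library. For comparisons across sets and interactions, the length trend was chosen after seeing the data, as was the restriction to young libraries with Ddx3y. On simulated counts the LK fit called 75% of genes changed by 0.5 log2 and 100% of those changed by 1. Of its calls, 6.42% were false. The interaction with cell type called 26% and 95%. The simulated libraries were drawn independently with the same spread setting for every gene, without the likeness of replicates 2 and 3 or a length trend. These shares therefore do not give the error rate of the calls in the data. Replicate numbers did not pair the libraries: same-numbered MT and WT libraries had deviations correlated at -0.37 to 0.47. Figures were drawn with matplotlib 3.10.9 (Python 3.11.15).

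The members and gene lists were chosen with earlier results of these data known. The text names the 7 members, Asxl1, Itgam and Kit. From each partner list it names at most 3 called genes in each direction, those of smallest adjusted p, in MT against WT and in LK against old WT cells, and for each member the 3 genes most correlated with it. Some genes that this rule picks are not reported here. Xist, Ddx3y, S100a8 and the granulocyte markers describe the libraries and were picked after their values were seen.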

Additional observations from a re-analysis of the deposited data

Results flagged for a closer look

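Tet2 stood apart in 1 library of young WT CD11b cells, the only group with enough libraries for this check. WT replicate 4 was at 180.1 CPM, and the other 3 were at 145.1 to 149.9 CPM. Its gap to the nearest library was 0.863 of the whole range, above Dixon's critical value. Chance alone flags about 1 in 20 such groups, and the group was checked for 7 genes. This library and MT replicate 3, at 166 CPM of Tet2, are the 2 young libraries with Ddx3y counts, and the part of that in the Tet2 level was not tested.

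For Dnmt1 the MT effect differed between LK and old CD11b cells, by -0.41 on the log2 scale (adjusted p = 0.0101, edgeR), with all 3 LK MT libraries below all 3 LK WT libraries and overlapping groups in old cells. For Dnmt3b it differed by -0.68 (adjusted p = 0.0178, edgeR), with MT above WT in all libraries of old cells and below WT in all libraries of LK cells. The larger part came from old cells, at 0.54 against -0.14 in LK cells. That old-cell change was itself not called (adjusted p = 0.225, edgeR) and rests on 52 to 138 counts per library. Summing replicates 2 and 3 ended both calls, at -0.33 and -0.60 (adjusted p = 0.373 and 0.363).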

How the results depend on the processing

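Of 1233 values recomputed under an alternative, 1077 kept their direction and their side of the threshold, or, for counts, stayed within 1.5 times. The cause of the changes below was not tested. With a replicate block, the members called in LK cells went from 4 to 0 and the genes called from 4206 to 3. The block also gave 16 genes in young cells (0 without it), 0 in old cells (45 without it) and 9 for the interaction with age (3 without it). In young cells it turned Dnmt3a to -0.008429 and Tet2 to 0.0576. With the block and the length trend removed, 14 genes were called in young, 2 in old and 5 in LK cells, with 0 members called in LK. Young Dnmt3a was then at -0.02467 and Tet2 at 0.04116, old Tet3 at -0.02673, and LK Dnmt3a, Tet1 and Tet3 at 0.01891, 0.1173 and 0.1323. The length trend alone left 1 member called in LK cells, with Dnmt3a, Tet1 and Tet3 at 0.0184, 0.1173 and 0.1315, turned old Tet3 to -0.02958 (99 genes called), and gave 1527 genes for the interaction with cell type (2904 otherwise). In that interaction it turned Dnmt3a, Tet1 and Tet3 to 0.1498, 0.2204 and 0.1455, in LK over old MT cells it put Dnmt3a at 0.6174, and in old over young WT cells at 0.1091.

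With replicates 2 and 3 summed, 0 members were called in LK cells and for the interaction with cell type, and 1, 3 and 0 genes were called in old cells, in LK cells and for that interaction. Old Tet3 was then at -0.04462, Dnmt3a in LK over old MT cells at 0.03489 and Tet3 in the interaction with age at -0.02153. DESeq2 called 20 genes in young cells, 511 in old cells and 66 for the interaction with age. The fit of all 19 libraries called 5 in young cells, 1864 for the interaction with cell type and 10 for that with age. Dnmt3a in LK over old MT cells was at 0.09245 there and at 0.01078 without a filter. The sex-linked covariate gave 7 genes and Uhrf1 at 0.01483 in young cells.

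Leaving out 1 library gave 0 to 1 genes in young cells, 0 to 1819 genes and 0 to 2 members in old cells, and 983 to 5569 genes and 1 to 6 members in LK cells. It gave 1129 to 4168 genes and 1 to 6 members for the interaction with cell type and 0 to 39 genes for that with age (39 without young WT replicate 4). In young cells Dnmt3a ran from -0.03418 to 0.06975, Tet2 from -0.08132 to 0.05962, Tet3 from -0.07162 to 0.007158 and Uhrf1 from -0.07115 to 0.06089. In old cells Dnmt3a ran from -0.1382 to 0.005658, Tet1 from -0.104 to 0.0165 and Tet3 from -0.03868 to 0.158. Dnmt3a in LK over old MT cells ran from -0.04118 to 0.01357, Tet1 in the interaction with cell type from -0.1682 to 0.003043 and Tet3 in that with age from -0.01157 to 0.183. Depth limits Dnmt3b in old CD11b cells most, at 52 to 138 counts.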

Other observations

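The 2 young libraries with Ddx3y counts, MT replicate 3 and WT replicate 4, also lay below the other 5 young libraries for Uhrf1, Dnmt1 and Dnmt3a, a pattern seen after the values were known. Uhrf1 was at 155.5 and 149 CPM in these samples and at 169.2 to 193.2 CPM in the other 5 young libraries. Dnmt1 was at 324.7 and 305 CPM against 344.4 to 379.9 CPM, and Dnmt3a at 68.0 and 71.8 CPM against 73.0 to 79.3 CPM. Tet3, at 258.5 and 270.5 CPM, lay inside the range of the others, 256.9 to 286.2 CPM. For Dnmt3b, at 9.395 and 7.245 CPM against 8.887 to 12.08 CPM, and Tet1, at 19.1 and 18.59 CPM against 18.59 to 26.19 CPM, MT replicate 3 lay inside that range. Transposable element counts per 1000 gene counts were 150.2 and 169.1, against 114 to 128.8 in the other 5. B cell markers summed to 105 and 120.3 CPM in the same samples and to 196.1 to 256.7 CPM in the other 5. The samples belong to both genotypes, and no test was made.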
